A study of Mus musculus with 5 samples.

Results

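The genes of the epidermal growth factor (EGF) receptor family were examined in RNA sequencing counts from the ear skin of Cd1d knockout (KO) mice and of control mice. The family was taken as 10 genes chosen by name: the receptors Egfr, Erbb2 and Erbb3, the ligands Areg, Ereg, Hbegf, Tgfa, Btc and Epgn, and the feedback inhibitor Errfi1. They were found by Entrez identifier, all 10 among the 27179 genes of the count table, and all 10 passed the filter on low counts that left 17472 genes for testing. The KO group held 2 libraries from Cd1d -/- skin and the control group 3 libraries from skin whose titles read Cd1d +/- and whose genotype tag reads WT. The series title gives B6 as the strain for both groups, and no treatment is named. The labels used here name neither the age of the mice nor whether each library came from its own mouse, so that the p-values measure the spread between these 5 libraries. The Cd1d protein displays lipid antigens to natural killer T cells, and the comparison asked what its loss alters in the skin transcriptome.

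EGF receptor ligands are made as membrane-bound precursors that metalloproteases of the ADAM family cut free. A bound ligand pairs receptor chains, which phosphorylate each other and feed the RAS-MAPK and PI3K cascades. ERBB2 has no known ligand of its own and serves as the favoured partner chain, while ERBB3 binds neuregulins and has a weak kinase. In skin the pathway drives keratinocyte growth and wound closure, and mice with reduced EGFR or TGF-alpha activity have wavy hair. ERRFI1, also called MIG6, binds the active EGFR kinase and shuts it off.

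Libraries summed to 54596686 and 45270805 counts in KO and to between 32353957 and 79160005 counts in controls, and a single read was worth between 0.0119 and 0.0303 CPM (counts scaled to a common library size with TMM factors). Cd1d1 had 61 and 48 counts in the KO libraries, against 557, 757 and 182 in the controls (log2 fold change -2.67, SE 0.29, edgeR adjusted p = 0.0152). KO replicate 1 stood apart in hair follicle genes: the 6 markers of the inner root sheath summed to 599.5 CPM there and 14.9 CPM in KO replicate 2, against 11.5 to 19.6 CPM in controls. Values without that library are given for Erbb3, Egfr, Ereg, Tgfa, Areg and Errfi1 and for the pathway genes that passed. The 6 markers of basal and the 6 of suprabasal keratinocytes were all detected, and for each list the KO sums exceeded those of all 3 controls. The basal sum was 18420 and 18920 CPM in KO and 15610 to 18110 CPM in controls, and the suprabasal sum was 39950 and 36240 CPM in KO and 24580 to 32420 CPM in controls. None of these 12 genes passed the test, and 3 of the 6 basal markers were lower and 2 higher in both KO libraries than in the 3 controls. Of the 6 suprabasal markers 3 were higher in both KO libraries than in all controls, while Krt1, Krt10 and Sbsn overlapped between the groups. A large part of the suprabasal sum was Lor, with 23500 and 17630 CPM in KO and 10370, 9652 and 15130 CPM in controls. That sum therefore does not speak for the 6 markers alike. Skeletal muscle markers, of which 2 of 6 rose and the other 4 did not pass, summed to 4731 and 5282 CPM in KO and 3360 to 3736 CPM in controls. Endothelial markers, of which none of 5 passed, summed to 220 and 206.8 CPM in KO and 232 to 252 CPM in controls. Sums of the sebocyte, fibroblast, Schwann cell, adipocyte, cartilage, macrophage, mast cell and T cell markers overlapped between the groups, and no marker of any list was at 0 throughout. Of these 8 lists a single gene passed, the sebocyte marker Awat2, which rose (log2 fold change 0.65, edgeR adjusted p = 0.032). The part of these cell types in the results below was not tested.

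None of the 10 family genes passed an adjusted p of 0.05 between KO and control skin (edgeR quasi-likelihood test, Benjamini-Hochberg over all tested genes), where 3.76% of all tested genes passed (2.71% higher and 1.05% lower in KO). At an unadjusted p under 0.05 there were 2 family genes, Erbb3 and Egfr, both lower in KO, and 21.9% of all tested genes. The DESeq2 test called 1, Erbb3, where it called 9.71% of all genes, and limma voom with quality weights called 3, Egfr, Erbb3 and Ereg, all lower, where it called 26.7% of all genes. Scaling to library size alone called 2, Egfr and Erbb3, where it called 7.11% of all genes. No family gene passed with DESeq2 size factors (3.91% of all genes), upper quartile scaling (3.97%), no count filter (4.77%), a stricter one that left out Areg (5.21%), the replicate block (11.7%) or length and GC offsets (3.37%). Of the 10 log2 fold changes 8 were negative and 2 positive, with a median of -0.24, beside a median of -0.02 and 52.4% negative over all tested genes. For 4 genes, Egfr, Erbb3, Tgfa and Errfi1, both KO libraries lay below every control library, as 20.0% of all tested genes did, out of 39.9% whose groups did not overlap in either direction. No family gene lay above the controls in both KO libraries, as 19.9% of all genes did. In whole skin, fewer cells of a type and less RNA per cell cannot be told apart.

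**Figure D1:**
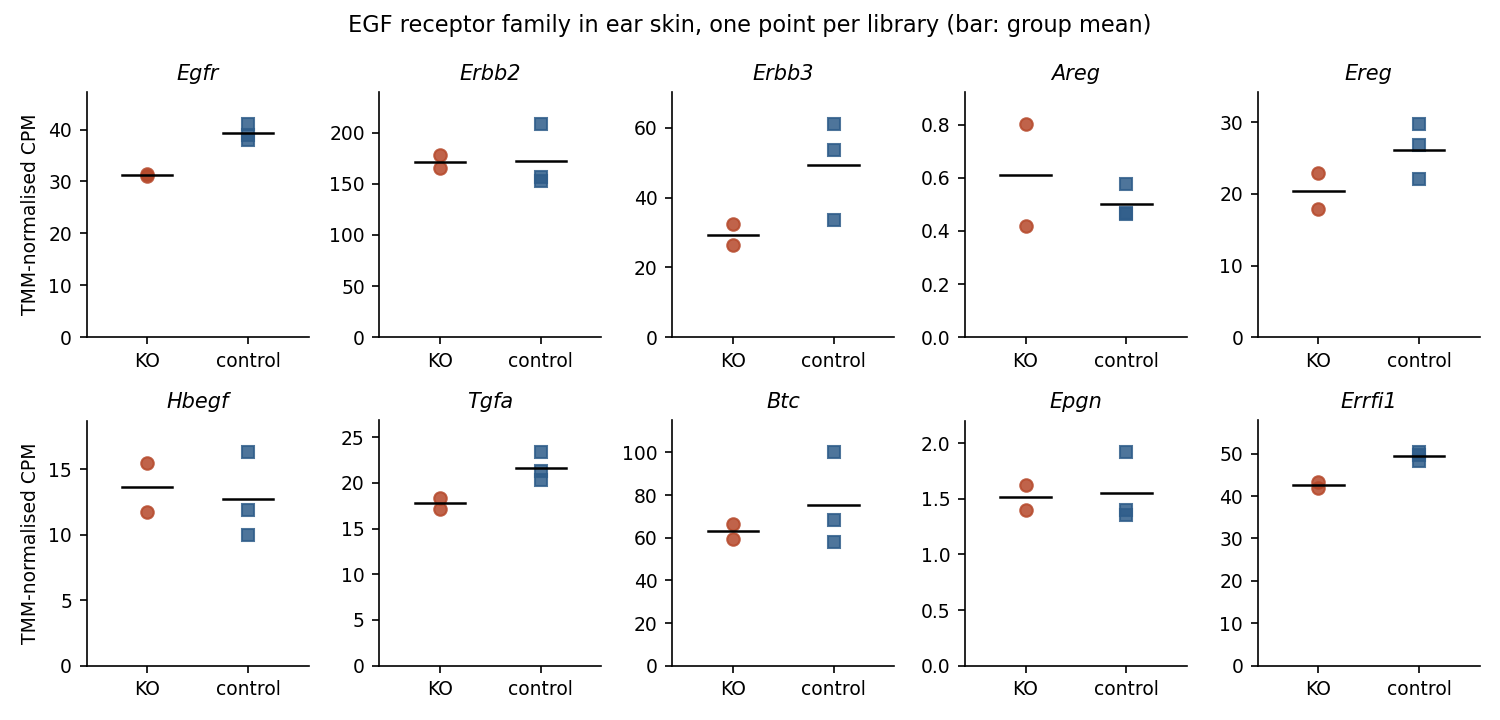
TMM-normalised CPM of the 10 family genes, with 1 point for each KO library (circles, n = 2) and each control library (squares, n = 3), a bar at each group mean and axes that start at 0. The KO points lie below all control points for Egfr, Erbb3, Tgfa and Errfi1 and overlap the control range for the other genes.

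Levels can be set side by side between genes only per transcript length, and on that scale the family spanned a wide range. Per kilobase of the longest annotated transcript, Erbb2 had the highest mean over the 5 libraries, 34.4 CPM per kilobase, and its range of 30.4 to 41.6 lay above every other family gene. Btc followed with 17.5 (range 14.5 to 24.8) and Errfi1 with 15.3 (13.8 to 16.5), and these ranges overlapped. Erbb3 averaged 6.89 CPM per kilobase, Ereg 5.79, Hbegf 4.53 and Tgfa 4.44, each overlapping the next in range. Egfr, the receptor that all 6 ligands bind, averaged 3.54 (3.04 to 4.02), within the ranges of Hbegf and Tgfa at its upper end. Epgn (0.874) and Areg (0.45) were the lowest, without overlap between them or with the rest. Among the receptors Erbb2 made up 70.8% to 82.7% of the level per length in each library, Erbb3 10.2% to 20.1% and Egfr 6.7% to 9.58%. Among the ligands Btc made up 45.4% to 59.6%, while Areg made up 0.927% to 2.08%. The order depends on the length used, since transcripts differ in how much of them is coding: 486 of 4128 bases for Ereg and 3768 of 5012 for Erbb2. Per kilobase of coding sequence Btc came first (132.9), then Ereg (49.2), Erbb2 (45.7) and Tgfa (42.1), with Egfr (9.94), Epgn (3.37) and Areg (0.734) again the last 3.

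**Figure D2:**
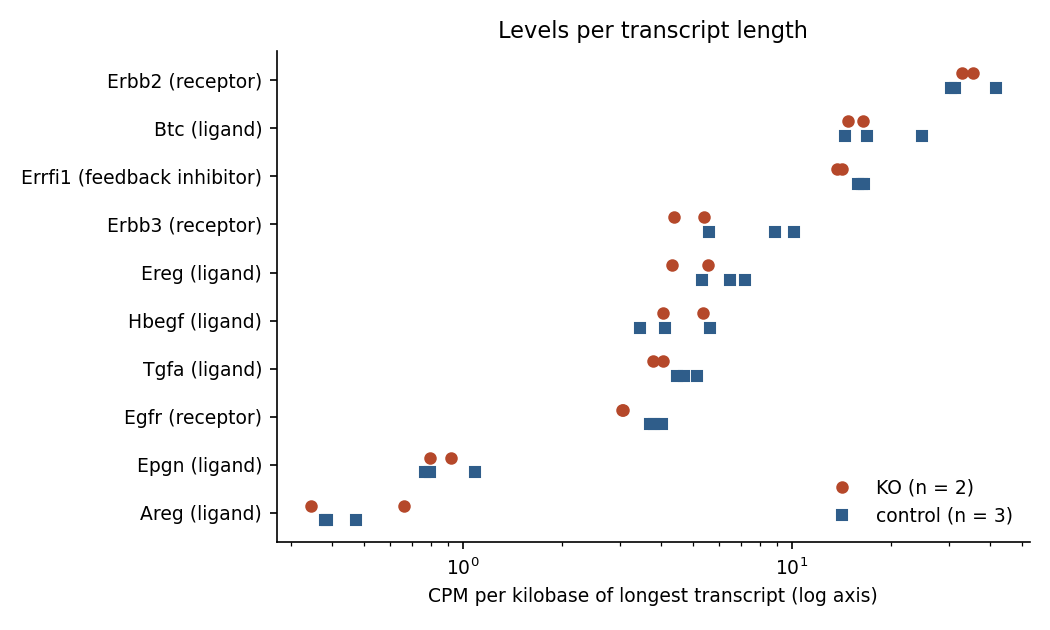
CPM per kilobase of the longest annotated transcript on a log axis for each family gene, ordered by mean level, with KO libraries as circles above control libraries as squares. Erbb2 was highest at 30.4 to 41.6 CPM per kilobase and Areg lowest at 0.346 to 0.661.

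The genes of 4 of the 6 ligands lie together on mouse chromosome 5. There Epgn (Entrez 71920, 91027517 to 91035212), Ereg (13874, 91074617 to 91093649) and Areg (11839, 91139599 to 91148432) lie in a row on the plus strand, and Btc (12223, 91357261 to 91402994) on the minus strand, all within 375478 bases of GRCm38. These neighbours included the highest and the lowest ligand levels of the family. The windows from 250 bases before to 50 bases after the annotated start (RefSeq, GRCm38.p6) are shown for 3 of them. They run 5' to 3' on the gene's strand and set the most and the least abundant ligands per transcript length side by side. No window was available for Ereg. Capitals mark the cyclic AMP response element TGACGTCA, the TATA element TATAA and the GC box GGGCGG, each searched on both strands (TTATA and CCGCCC on the other strand; TGACGTCA is its own reverse).
Areg, chr5:91139349-91139648, plus strand: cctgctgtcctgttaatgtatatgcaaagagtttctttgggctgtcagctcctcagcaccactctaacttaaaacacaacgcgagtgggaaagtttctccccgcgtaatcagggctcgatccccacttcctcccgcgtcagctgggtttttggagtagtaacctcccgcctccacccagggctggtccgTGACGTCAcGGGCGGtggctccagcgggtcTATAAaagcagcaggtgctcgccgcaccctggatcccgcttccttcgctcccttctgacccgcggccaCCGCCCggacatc
Btc, chr5:91402945-91403244, minus strand: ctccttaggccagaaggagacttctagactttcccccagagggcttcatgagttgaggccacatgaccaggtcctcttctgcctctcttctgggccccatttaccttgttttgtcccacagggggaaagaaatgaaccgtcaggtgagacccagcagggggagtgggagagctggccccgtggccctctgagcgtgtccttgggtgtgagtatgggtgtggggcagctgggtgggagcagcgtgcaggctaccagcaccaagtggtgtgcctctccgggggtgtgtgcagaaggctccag
Epgn, chr5:91027267-91027566, plus strand: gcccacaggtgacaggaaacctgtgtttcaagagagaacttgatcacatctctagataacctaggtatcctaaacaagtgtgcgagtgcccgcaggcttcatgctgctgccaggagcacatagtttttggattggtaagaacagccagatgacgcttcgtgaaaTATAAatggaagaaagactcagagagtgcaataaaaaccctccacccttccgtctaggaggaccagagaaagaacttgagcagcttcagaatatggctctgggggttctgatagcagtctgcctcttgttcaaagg
The Areg window held TGACGTCA starting 61 bases upstream of the start, a GC box at 52 and TATAA at 31 bases upstream, and a second GC box 38 bases into the transcript. The Epgn window held TATAA 86 bases upstream, and the Btc window held none of these motifs. Of 32851 annotated windows of this length, 1.79% held TGACGTCA, 24.9% the TATA element on either strand and 35.7% a GC box. These matches describe the letters of the windows and were not set against binding data.

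Betacellulin, encoded by Btc, binds both EGFR and ERBB4. Btc had 66.5 and 59.6 CPM in KO skin, against 68.4, 100.04 and 58.2 CPM in control skin. The groups overlapped, with control replicate 2 well above the other 4 libraries. Its KO over control ratio was 0.834 with a 95% interval of 0.613 to 1.14 (log2 fold change -0.26, SE 0.20, edgeR adjusted p = 0.478), and without control replicate 2 its log2 fold change was -0.01.

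Epiregulin, the product of Ereg, is a ligand that binds its receptors with low affinity and signals for long. Ereg had 23.0 and 17.9 CPM in KO skin and 26.8, 29.8 and 22.1 CPM in control skin. The higher KO library lay just above the lowest control, so the groups overlapped. The ratio was 0.778 (95% interval 0.605 to 1.002, log2 fold change -0.36, SE 0.16, edgeR adjusted p = 0.231). Without control replicate 3 Ereg passed as lower (-0.47, edgeR adjusted p = 0.0313), a fit in which 18.8% of all genes passed, and without KO replicate 1 its log2 fold change was -0.55 without passing (edgeR adjusted p = 0.427). It was -0.19 without KO replicate 2 (edgeR adjusted p = 0.745) and -0.26 without control replicate 2 (edgeR adjusted p = 0.332).

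Tgfa (Entrez 21802, chr6:86195038-86275744, plus strand) encodes TGF-alpha, the ligand whose loss gives mice wavy hair. Tgfa had 18.3 and 17.2 CPM in KO skin, against 20.3, 21.3 and 23.3 CPM in control skin. Both KO libraries lay below the controls. The mean was 17.8 ± 0.811 CPM in KO (SD, n = 2) and 21.7 ± 1.55 CPM in controls (SD, n = 3), and the log2 fold change was -0.28 (SE 0.13, edgeR adjusted p = 0.235), or -0.33 without KO replicate 1.

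Heparin-binding EGF, encoded by Hbegf (Entrez 15200, chr18:36504927-36515805, minus strand), takes part in keratinocyte migration after wounding. Hbegf had 11.7 and 15.5 CPM in KO skin and 11.9, 10.004 and 16.3 CPM in control skin. The groups overlapped, and both had a low and a high library. The ratio of 1.08 had a 95% interval of 0.781 to 1.49 (edgeR adjusted p = 0.81).

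Areg and Epgn, for amphiregulin and epigen, had the lowest levels of the family. Areg had 41 and 18 counts in KO, against 39, 36 and 19 counts in controls, which is 0.803 and 0.42 CPM in KO and 0.463, 0.47 and 0.577 CPM in controls. The KO libraries lay on both sides of the control range. Its interval of 0.639 to 2.4 for the KO over control ratio was the widest of the family (edgeR adjusted p = 0.723), and its log2 fold change of 0.31 became -0.24 without KO replicate 1. Epgn had 83 and 60 counts in KO and 114, 147 and 46 in controls, with a ratio of 0.97 (95% interval 0.624 to 1.51, edgeR adjusted p = 0.953).

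Among the receptors Erbb3 (Entrez 13867, chr10:128567523-128589635, minus strand) showed the largest difference of the family. Erbb3 had 26.3 and 32.5 CPM in KO skin, against 53.6, 33.7 and 61.1 CPM in control skin. Both KO libraries lay below the controls, but KO replicate 2 and control replicate 2 lay close to each other, and the controls differed among themselves by more than the KO libraries. The mean was 29.4 ± 4.34 CPM in KO (SD, n = 2) and 49.5 ± 14.2 CPM in controls (SD, n = 3), a ratio of 0.595 with a 95% interval of 0.423 to 0.838 (log2 fold change -0.75, SE 0.22, unadjusted p = 0.00686, edgeR adjusted p = 0.0876). The negative direction held in all 17 alternatives, with log2 fold changes between -0.96 and -0.37, of which 4 passed. Without control replicate 2 Erbb3 passed as lower (-0.96, edgeR adjusted p = 0.0023), a fit in which 7.80% of all genes passed, and without KO replicate 1 it did not (-0.60, edgeR adjusted p = 0.496), a fit in which 0.00554% of all genes passed. ERBB3 is also the neuregulin receptor of Schwann cells. The 6 Schwann cell markers, all detected, summed to 999 and 1067 CPM in KO and 959 to 1051 CPM in controls, so that these sums overlapped between the groups.

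Egfr (Entrez 13649, chr11:16752203-16913907, plus strand) encodes the receptor that gives the family its name. Egfr had 31.4 and 31.05 CPM in KO skin and 41.1, 39.0 and 38.0 CPM in control skin. The libraries of each group lay close together and the groups did not overlap, but the difference did not hold with offsets for length and GC content. There the log2 fold change was 0.02 (edgeR adjusted p = 0.916), or 0.07 with the replicate block as well, and it was -0.01 with length alone. The mean was 31.2 ± 0.256 CPM in KO (SD, n = 2) and 39.3 ± 1.59 CPM in controls (SD, n = 3), 20.6% lower, with a ratio of 0.794 (95% interval 0.665 to 0.947, log2 fold change -0.33, SE 0.12, unadjusted p = 0.0154, edgeR adjusted p = 0.125). Without control replicate 3 Egfr passed as lower (-0.36, edgeR adjusted p = 0.032), a fit in which 18.8% of all genes passed. Without KO replicate 1 the log2 fold change was -0.34 (edgeR adjusted p = 0.526), and without KO replicate 2, where 0.706% of all genes passed, Egfr did not pass either. The antisense gene Egfros shares 15272 bases of genome with Egfr and had 29 and 9 counts in KO and 76, 68 and 25 in controls, few beside the Egfr counts of 1604 and 1330 in KO and 3463, 2987 and 1251 in controls.

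Erbb2 (Entrez 13866, chr11:98412484-98437716, plus strand) was the most abundant receptor transcript. Erbb2 had 178 and 165 CPM in KO skin, against 157, 153 and 208 CPM in control skin. The KO libraries lay inside the control range. The ratio was 0.995, and its 95% interval ran from 0.79 to 1.25 (edgeR adjusted p = 0.986). Erbb2 overlaps its neighbour Mien1 on the opposite strand by 9 bases, and no source used here says whether reads were counted by strand. The level of Erbb3 per length was 0.123 and 0.164 of that of Erbb2 in the KO libraries, against 0.284, 0.184 and 0.244 in the controls.

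Errfi1 (Entrez 74155, chr4:150853796-150868889, plus strand) is transcribed in response to receptor activity and its product then inhibits the kinase. Errfi1 had 41.8 and 43.4 CPM in KO skin and 50.3, 49.7 and 48.3 CPM in control skin. The groups did not overlap, and the libraries of each group lay close together. The mean was 42.6 ± 1.08 CPM in KO (SD, n = 2) and 49.4 ± 0.993 CPM in controls (SD, n = 3), 13.8% lower (log2 fold change -0.22, SE 0.11, edgeR adjusted p = 0.29). The test pools the spread of many genes, and by it a difference of this size did not pass, with a ratio of 0.861 and a 95% interval of 0.725 to 1.02. Without KO replicate 1 the log2 fold change of Errfi1 was -0.19. The level of Errfi1 per length was 4.47 and 4.68 times that of Egfr in KO, against 4.11, 4.28 and 4.27 times in controls. The transcripts have 3043 and 10208 bases, and dividing by a fixed length leaves the length trend of the libraries, given below, in this ratio. With length and GC offsets the log2 fold change was -0.18 for Errfi1 and 0.02 for Egfr, the opposite order. The start windows of Egfr and of both annotated starts of Errfi1 are shown because these 2 genes separated the groups with the least spread between libraries, with capitals as above.
Egfr, chr11:16751953-16752252, plus strand: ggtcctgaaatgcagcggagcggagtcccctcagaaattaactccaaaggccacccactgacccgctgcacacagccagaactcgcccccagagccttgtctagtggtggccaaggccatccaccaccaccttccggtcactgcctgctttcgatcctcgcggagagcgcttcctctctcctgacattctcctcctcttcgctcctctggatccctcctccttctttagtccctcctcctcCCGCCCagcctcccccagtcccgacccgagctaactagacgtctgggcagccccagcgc
Errfi1, chr4:150853546-150853845, plus strand: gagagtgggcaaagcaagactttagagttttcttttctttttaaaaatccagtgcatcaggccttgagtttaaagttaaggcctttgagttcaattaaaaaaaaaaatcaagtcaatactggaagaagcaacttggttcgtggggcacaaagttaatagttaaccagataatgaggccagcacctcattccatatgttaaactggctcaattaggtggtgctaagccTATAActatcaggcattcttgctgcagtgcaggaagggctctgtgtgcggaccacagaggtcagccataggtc
Errfi1, chr4:150854820-150855119, plus strand: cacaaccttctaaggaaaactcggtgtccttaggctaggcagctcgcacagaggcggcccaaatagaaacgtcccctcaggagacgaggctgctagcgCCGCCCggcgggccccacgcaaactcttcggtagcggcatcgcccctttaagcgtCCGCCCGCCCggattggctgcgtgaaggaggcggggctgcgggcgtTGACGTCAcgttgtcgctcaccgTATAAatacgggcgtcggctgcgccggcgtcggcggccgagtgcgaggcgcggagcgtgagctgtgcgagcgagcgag
The Errfi1 window at the outer start, where the gene begins, held TATAA 23 bases upstream and neither other motif. The window at the inner start held TGACGTCA 51 bases and TATAA 28 bases upstream of the start and 3 GC boxes, 2 of them overlapping, and the Egfr window held a single GC box 9 bases upstream.

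**Figure D3:**
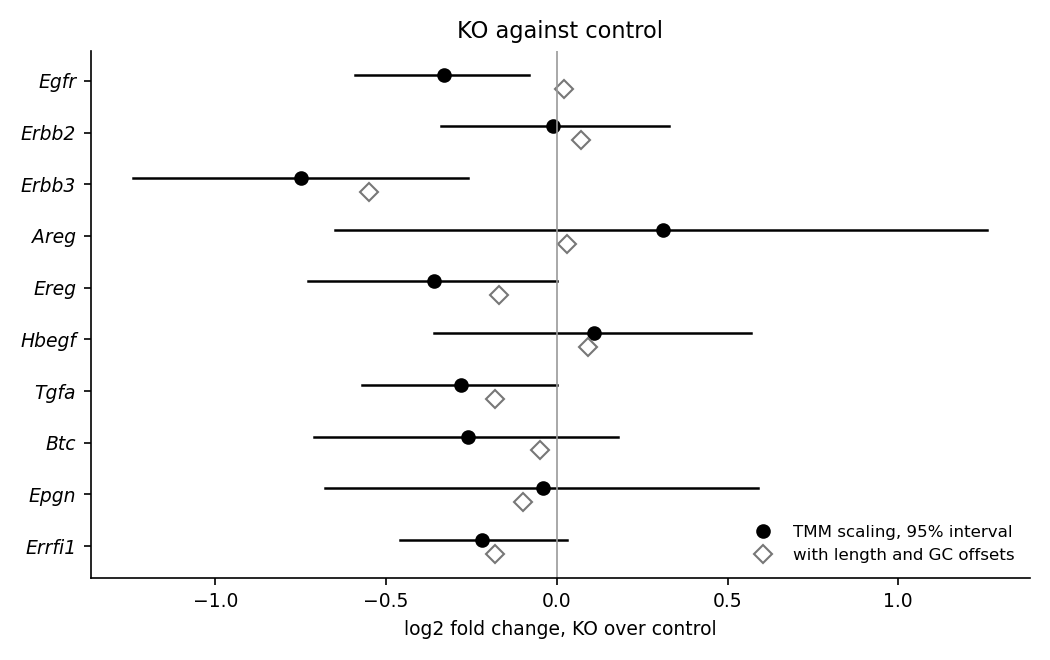
Log2 fold changes of KO over control for the 10 family genes with 95% intervals (filled circles, edgeR with TMM scaling), and the same with length and GC offsets (open diamonds). Erbb3 lies lowest at -0.75, and Egfr lies at -0.33 with TMM scaling and at 0.02 with the offsets.

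Across all tested genes the fold change moved with transcript length, and the family genes differ in length. Ranked against the longest annotated transcript, the log2 fold changes gave a Spearman's rho of -0.55 over 15809 genes, which are not independent replicates. Within each library, deviations from the gene means gave a rho with length of -0.457 and -0.453 in KO and 0.449, 0.305 and 0.192 in controls. The deviations of a gene cancel out over the libraries, so the values in KO and in controls are not independent of each other. A genotype effect that follows length and a length trend of the libraries therefore cannot be told apart, and offsets for length remove both. Egfr has a transcript of 10208 bases, and the 863 tested genes of 8000 bases or more had a median of -0.32 on the log2 scale, close to the -0.33 of Egfr. In that length class both KO libraries lay below all controls for 55.2% of genes. Erbb3 has 6016 bases, and genes of 6000 to 8000 bases had a median of -0.26, against its -0.75. Ereg, Tgfa, Btc and Erbb2 fall in the class of 4000 to 6000 bases, whose median was -0.15. Errfi1 (3043 bases) lies in a class with a median of -0.04, Hbegf in one of 0.06, and Areg and Epgn in one of 0.24. With per-library offsets that remove the trend on length and GC content, the log2 fold change was 0.02 for Egfr, -0.55 for Erbb3, -0.17 for Ereg, -0.18 for Tgfa and -0.18 for Errfi1, and none passed (edgeR adjusted p = 0.253 to 0.983 over the family). The median of the 10 genes was then -0.07, with 6 of them negative. With length offsets alone the median was -0.17, with 8 of the 10 negative, and none passed.

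**Figure D4:**
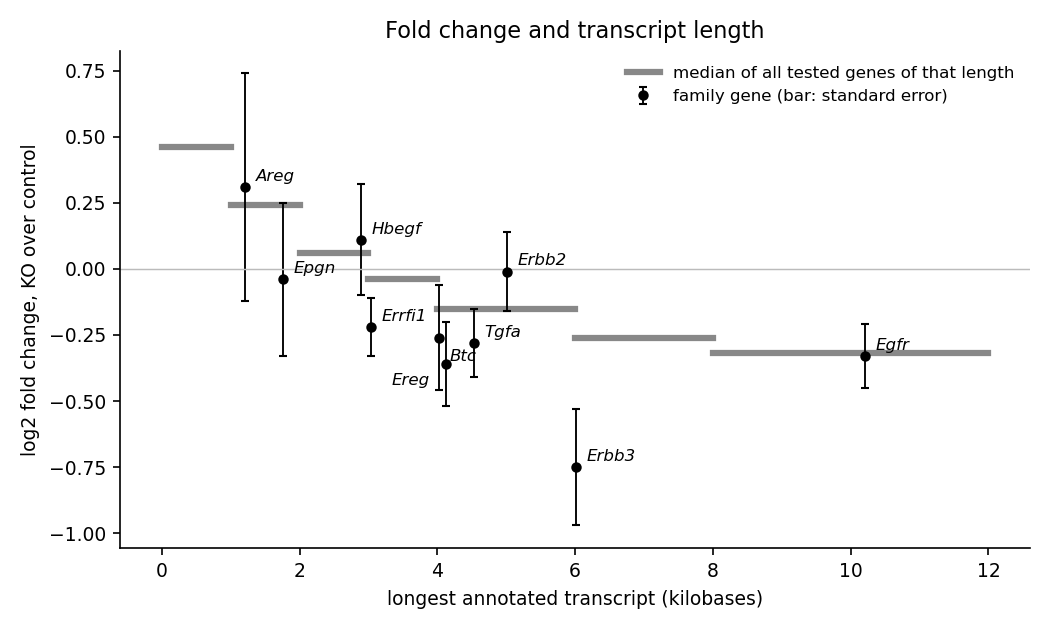
Log2 fold change of KO over control against the longest annotated transcript in kilobases for the family genes (points, bars are standard errors), with the median of all tested genes in each length class as grey lines, the last drawn for all genes above 8 kilobases. Egfr lies at the median of its class and Erbb3 lies below that of its own.

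The genes whose pattern over the 5 libraries lay nearest to Egfr were Crlf3, Ipmk, Cnst and Polh, with a root mean square difference of log2 CPM deviations between 0.00979 and 0.0258. Nearest to Btc, the most abundant ligand per length, were Homer1, Sema3c, Adhfe1 and Hs6st2, at 0.0228 to 0.0321. With 13794 candidates and 5 libraries such closeness is a description of these libraries.

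The wider pathway was read from lists of 100 further genes, of which 98 could be tested. Of these, 1 rose, 4 fell and 93 did not pass, or 5.1% called beside 3.76% of all genes, with a median log2 fold change of -0.17 beside -0.02. The KO libraries lay below every control for 35 of the 98, and above for 3, as 20.0% and 19.9% of all tested genes did. Many of the list genes have long transcripts, and the lists were not matched for length. Over all tested genes the share below every control was 9.45% at 2000 to 3000 bases. It was 31.3% at 4000 to 6000 bases and 48.6% at 6000 to 8000 bases. The part of length in the list values was not tested. The genes that fell were Adam10, Cbl, Braf and Spred1, and the gene that rose was Hras.

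Of 12 genes of ligand shedding 1 fell, 0 rose and 11 did not pass, with a median of -0.08. The gene that fell was Adam10, the metalloprotease that cuts betacellulin and EGF precursors. Adam10 had 22.8 and 27.3 CPM in KO skin, against 45.6, 45.1 and 39.5 CPM in control skin. Both KO libraries lay below all controls. The mean was 25.05 ± 3.17 CPM in KO (SD, n = 2) and 43.4 ± 3.37 CPM in controls (SD, n = 3), a log2 fold change of -0.79 (SE 0.13, edgeR adjusted p = 0.0203). Adam10 still passed with length and GC offsets (-0.60, edgeR adjusted p = 0.0154), but not with length offsets alone (-0.67, edgeR adjusted p = 0.0902), nor without KO replicate 1, KO replicate 2 or control replicate 1 (-0.67, -0.93 and -0.75, edgeR adjusted p = 0.343, 0.0661 and 0.127). In those 3 fits 1, 128 and 0 of all tested genes passed. Adam17, which sheds TGF-alpha, amphiregulin and HB-EGF, had 72.1 and 67.9 CPM in KO and 80.4, 81.0 and 65.5 CPM in controls and did not pass (log2 fold change -0.11, SE 0.13, edgeR adjusted p = 0.663). It was named after its value was seen.

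Of 20 adaptor and RAS-MAPK genes 1 rose, 1 fell and 18 did not pass, with a median of -0.18. Hras, a small GTPase that activates RAF kinases, had 451 and 455 CPM in KO skin and 302, 319 and 344 CPM in control skin, all KO values lying above the controls. Its log2 fold change was 0.49 (SE 0.11, edgeR adjusted p = 0.0435), and 0.42 with length and GC offsets (edgeR adjusted p = 0.0254). It did not pass at 0.47 with length offsets alone (edgeR adjusted p = 0.142), at 0.40 with the replicate block and both offsets (edgeR adjusted p = 0.0539) or at 0.35 with scaling to library size alone (edgeR adjusted p = 0.0799). Braf, a RAF kinase, had 15.1 and 13.9 CPM in KO skin and 23.5, 23.8 and 19.8 CPM in control skin, with a log2 fold change of -0.63 (SE 0.14, edgeR adjusted p = 0.0392). Its transcript is long, and with length and GC offsets the value was -0.25 without passing (edgeR adjusted p = 0.198).

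Of 26 feedback and receptor degradation genes 2 fell, 0 rose and 24 did not pass, with a median of -0.22. Cbl, the ubiquitin ligase that marks active EGFR for degradation, had 2.88 and 4.09 CPM in KO skin, against 7.51, 7.51 and 6.65 CPM in control skin. Its log2 fold change was -1.06 (SE 0.20, edgeR adjusted p = 0.0258), and -0.71 with length and GC offsets, where it did not pass (edgeR adjusted p = 0.0536). Spred1, which restrains RAS signalling, had 17.6 and 17.7 CPM in KO skin and 26.2, 27.2 and 25.3 CPM in control skin, a log2 fold change of -0.57 (SE 0.12, edgeR adjusted p = 0.0332), and -0.29 with both offsets (edgeR adjusted p = 0.164). Cbl, Braf, Spred1 and Hras, like Adam10, did not pass without KO replicate 1, KO replicate 2 or control replicate 1, fits in which only 1, 128 and 0 of all tested genes passed with edgeR (2253 had an unadjusted p under 0.05 in the last). Their log2 fold changes without those 3 libraries in turn were -0.82, -1.33 and -1.02 for Cbl, -0.68, -0.57 and -0.58 for Braf, -0.57 in each case for Spred1, and 0.50, 0.49 and 0.45 for Hras.

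None of the 17 genes of the PI3K, phospholipase C and STAT arms passed, with a median of -0.22. Those with the smallest p were Plcg1, a phospholipase bound by the active receptor (-0.48, SE 0.15, edgeR adjusted p = 0.104), and Pik3r3, a regulatory subunit of PI3K (-0.35, SE 0.14, edgeR adjusted p = 0.174). None of the 19 early genes that receptor activity induces passed, with a median of -0.09. The smallest p belonged to the transcription factor gene Etv5 (-0.33, SE 0.16, edgeR adjusted p = 0.262) and the prostaglandin synthase gene Ptgs2 (-0.64, SE 0.36, edgeR adjusted p = 0.327). Fos, chosen after its values were seen, had the lowest log2 fold change of that list, -1.60, with an SE of 0.85. It had 31.8 and 20.2 CPM in KO skin, against 50.3, 36.8 and 151.5 CPM in control skin, with control replicate 3 far above the rest. The whole list summed to 1824 CPM in control replicate 3, against 1275 and 1224 CPM in KO and 1178 and 1117 CPM in the other controls. Without control replicate 3 Ier2 and Junb passed, a fit in which 18.8% of all genes passed. Fos, Ier2 and Junb passed with the replicate block (11.7% of all genes), and Etv5, Fos and Ier2 with limma voom (26.7%).

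The remaining receptor and ligands of the family were scarce or did not differ past the threshold. Erbb4, the fourth receptor, had 6 and 2 counts in KO and 4, 6 and 3 in controls, too few to test. Nrg3 had no count in any library, which allows up to 0.0356 to 0.091 CPM in a library (3 counts, counting error only). Of the 4 genes tested none passed. Nrg2, a neuregulin, had 9.62 and 10.4 CPM in KO skin and 6.23, 6.04 and 10.8 CPM in control skin (log2 fold change 0.40, SE 0.24, edgeR adjusted p = 0.362). Egf itself had 2.35 and 2.4 CPM in KO skin and 3.69, 2.82 and 2.67 CPM in control skin (log2 fold change -0.37, SE 0.24, edgeR adjusted p = 0.393).

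**Figure D5:**
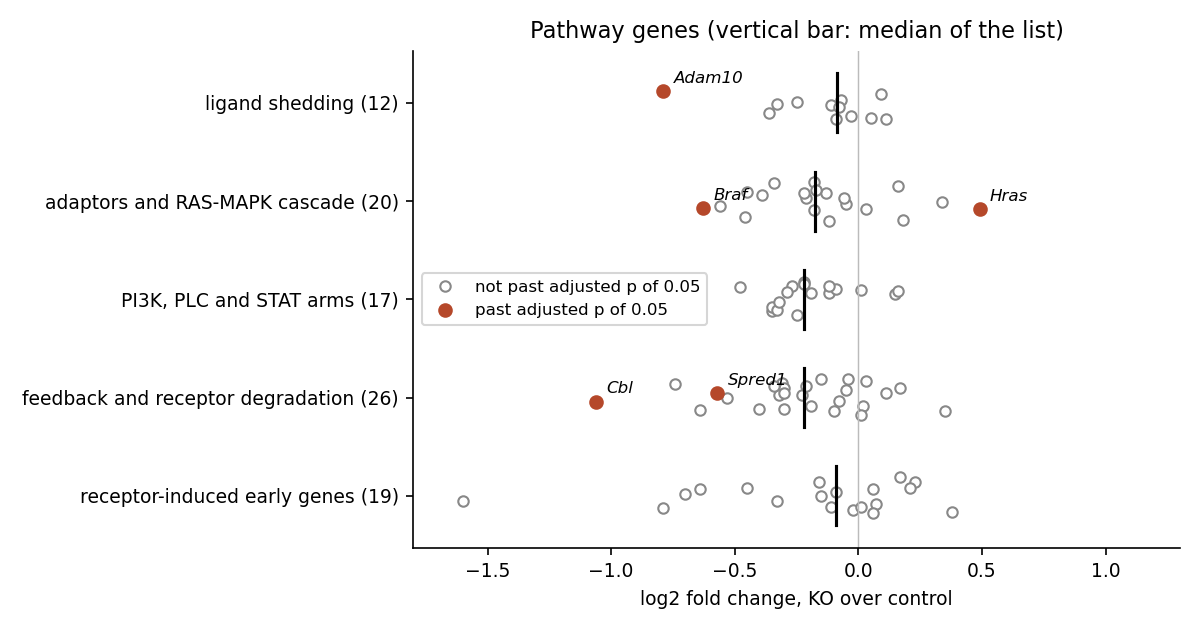
Log2 fold changes of KO over control for tested genes of 5 pathway lists (number tested in brackets), with genes past an adjusted p of 0.05 filled and named and a vertical bar at each list's median. Adam10, Cbl, Braf and Spred1 lie below 0 and Hras above, and all list medians lie between -0.22 and -0.08.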

How the data were processed

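RNA was taken from ear skin (2 KO and 3 control libraries, grouped by title) with a fibrous tissue kit, and libraries were prepared commercially, per the labels' protocols. Raw read counts, whole numbers for each Entrez gene, were deposited. Per the submitters' processing notes the tools included HISAT2 2.0.4 and DESeq2 1.16.1 with the GRCm38 build. How reads were assigned to genes, by which program and with what strand setting, is not stated there.

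Symbols came from RefSeq GRCm38.p6 (25275 of 27179 identifiers) and lengths and GC content from GENCODE (90.5% of tested genes). Genes were filtered with filterByExpr, scaled by TMM and tested with edgeR 4.0.16 (quasi-likelihood, robust, R 4.3.3; Benjamini-Hochberg over 17472 genes, threshold 0.05). Of these, 657 passed, 474 higher and 183 lower in KO, and with scaling to library size alone 268 higher and 974 lower. Alternatives used DESeq2 1.42.0, limma 3.58.1 voom, other scalings and filters, offsets from mgcv 1.9.3, the replicate block and each library left out. With a KO replicate left out, the single KO library left takes its spread from the controls. Scripts were tested on simulated data without a length trend. Of the changes put in, 20% passed at 1.5-fold, 78% at 2-fold and 100% at 3-fold, so changes of 1.5-fold mostly did not pass in the simulation. It gave 154 genes past the threshold, against 657 in the data, and the adjustment of p depends on that number. These shares therefore need not hold for the data. No pair of libraries in a group agreed within sampling noise (chi-square per degree of freedom 22.9 to 76.3, genes with 10 or more counts in a pair).

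The family genes and lists were chosen with earlier results of these data known. Named pathway genes are those past the threshold, otherwise the 2 with the smallest p in a list. The length classes were added after the data were seen.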

Additional observations from a re-analysis of the deposited data

How the results depend on the processing

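None of the 10 family genes passed under the other scalings except library size alone, under other filters, with robust estimation off, with the replicate block or with any offsets. Family genes past the threshold numbered 2 with scaling to library size alone (Egfr and Erbb3, where the median of all genes was -0.16), 1 with DESeq2, 3 with limma voom, and 0 to 2 with a library left out. Pathway list genes numbered 5, against 13 with library size alone, 9 with DESeq2, 30 with limma voom, 16 with the replicate block, 2 with length and GC offsets, 0 with length offsets alone, 2 with the replicate block and both offsets, and 0 to 23 with a library left out. All genes past the threshold numbered 657, against 1242 with library size alone, 1036 without a count filter, 1696 with DESeq2, 4662 with limma voom, 2037 with the replicate block, 21 with length offsets alone, and 0 to 3277 with a library left out. The 0 came from edgeR without control replicate 1, where 2253 genes had an unadjusted p under 0.05, and the 3277 without control replicate 3, while 1 passed without KO replicate 1 and 128 without KO replicate 2. The causes of these differences were not tested. Erbb3, Ereg, Tgfa, Btc and Errfi1 kept a negative log2 fold change in all 17 alternatives. Others changed sign without passing. Egfr had 0.02 with length and GC offsets and 0.07 with the replicate block and both offsets. Erbb2 had 0.09 with limma voom, 0.15 with the replicate block, 0.07 with length and GC offsets, 0.15 with length offsets alone and 0.11 with the block and both offsets, and ranged from -0.09 to 0.15 with a library left out, above 0 without KO replicate 2 (0.05) and without control replicate 3 (0.15). Areg had -0.03 with length offsets alone and -0.24 without KO replicate 1, the low end of a range to 0.69 with a library left out. Hbegf had -0.04 with library size alone, -0.11 without KO replicate 2 and -0.04 without control replicate 2, and up to 0.31 with other libraries left out. Epgn had 0.11 with limma voom, 0.06 without KO replicate 2 and 0.14 without control replicate 2. The labels do not say that replicate numbers pair the samples, and the deviations of same-numbered libraries correlated at 0.016 and 0.0641 over 2 pairs. Deviations were taken from the group mean, so those of KO replicate 2 are those of KO replicate 1 with the sign reversed. The 2 pairs are therefore not separate evidence. KO replicate 1 correlated at -0.0641 with control replicate 2 and at 0.0474 with control replicate 3. Areg was left out by the stricter count filter.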
